A study of Mus musculus with 4 samples.

Results

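Loss of lamin B1 is widely used as a mark of cellular senescence, so 10 genes of the senescence and p53 pathways were examined in olfactory cells lacking lamin B1. They are the cyclin-dependent kinase (CDK) inhibitor genes Cdkn1a, Cdkn1b, Cdkn1c and Cdkn2a, the retinoblastoma gene Rb1, Trp53 (p53) and its inhibitor Mdm2, and the p53 target genes Ccng1, Bax and Phlda3. They were chosen by gene symbol from 23337 listed symbols, and all 10 were found. Of these, 9 passed the filter on low counts, as did 15438 genes in all, and Cdkn2a did not.

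Cells carrying the Tomato reporter were sorted from the olfactory epithelium of 4 mice and their RNA was sequenced, with 2 Lmnb1-/- (mutant) and 2 Lmnb1+/- (control) samples of 1 mouse each. All mice were of mixed background and were collected 4 weeks after 50 mg/kg methimazole, a drug that destroys the epithelium and leads to its regeneration. A keratin 5 promoter drove Cre in horizontal basal cells, the resident stem cells, so that controls had also undergone Cre recombination, lost 1 Lmnb1 allele and switched on the Tomato reporter. Sorted cells were a mixture of stem cells, progenitors, supporting cells and neurons descended from these stem cells, and a minority of Tomato-positive cells in mutant tissue retained lamin B1. Each mutant was paired with a littermate control of the same sex, age and handling. The pairs are called experimental groups 1 and 2 and give the samples their numbers. Ages of single mice were not given in the labels.

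Gene counts summed to 14833396 to 23704638 per sample. Mutant 1 stood apart, since 39.4% of its uniquely aligned reads lay outside genes, compared with 22.1% to 24.9% in the other samples. Levels are given as CPM, read counts relative to the gene total of a sample, scaled by the trimmed mean of M-values (TMM). Lmnb1 itself, counted over all its exons although only exon 2 was floxed, measured 20.6 and 18.8 CPM in controls 1 and 2, against 14.1 and 10.1 CPM in mutants 1 and 2. Both mutants were below both controls, as were 13.4% of all tested genes. The Lmnb1 log2 fold change of -0.72 (SE 0.31) did not pass (edgeR adjusted p = 0.195). The basal cell keratin Krt5 was at 628 to 1405 CPM and the mature neuron marker Omp at 911 to 9653 CPM, so both ends of the lineage were present in every sample.

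As background, p53 is a transcription factor that is activated by DNA damage and other stress and switches on genes that stop the cell cycle, repair DNA or start apoptosis. Cdkn1a (p21), Mdm2, Ccng1, Bax and Phlda3 are among its textbook targets, and MDM2 protein in turn marks p53 for degradation. CDK inhibitors keep the retinoblastoma protein active, which holds back E2F factors and entry into S phase. In senescent cells p21 and the Cdkn2a product p16 are typically high and lamin B1 is low, whereas in neural lineages p27 (Cdkn1b) and p57 (Cdkn1c) accompany the normal exit from the cell cycle.

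Start regions of 5 of the genes are shown because they differ in the presence of the p53 half-site, the 10-base unit that p53 recognises in pairs. The sequences are from RefSeq (GRCm38.p6, the mm10 assembly) and run 5′ to 3′ on the strand of the gene, from 250 to 31 bases before an annotated start. Capitals mark exact matches to the half-site consensus.
Phlda3 (chr1:135765835-135766054, plus strand): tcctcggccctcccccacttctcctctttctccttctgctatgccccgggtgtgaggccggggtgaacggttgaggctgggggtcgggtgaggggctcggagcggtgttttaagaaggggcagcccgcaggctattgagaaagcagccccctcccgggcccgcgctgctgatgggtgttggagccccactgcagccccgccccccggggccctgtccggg
Cdkn1b (chr6:134920151-134920370, plus strand): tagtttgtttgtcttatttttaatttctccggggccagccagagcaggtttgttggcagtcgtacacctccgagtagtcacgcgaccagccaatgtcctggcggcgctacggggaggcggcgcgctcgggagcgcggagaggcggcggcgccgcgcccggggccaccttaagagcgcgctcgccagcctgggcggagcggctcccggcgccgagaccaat
Cdkn1a (chr17:29090729-29090948, plus strand): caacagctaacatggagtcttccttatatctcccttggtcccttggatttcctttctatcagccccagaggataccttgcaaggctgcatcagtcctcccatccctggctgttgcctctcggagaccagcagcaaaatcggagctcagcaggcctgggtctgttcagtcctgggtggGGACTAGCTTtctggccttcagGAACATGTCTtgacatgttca
Ccng1 (chr11:40755317-40755536, minus strand): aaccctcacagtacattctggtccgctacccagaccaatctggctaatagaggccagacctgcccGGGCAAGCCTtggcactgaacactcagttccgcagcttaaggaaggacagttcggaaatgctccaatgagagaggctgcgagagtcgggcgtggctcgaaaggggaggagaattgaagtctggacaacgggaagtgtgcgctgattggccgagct
Bax (chr7:45466929-45467148, minus strand): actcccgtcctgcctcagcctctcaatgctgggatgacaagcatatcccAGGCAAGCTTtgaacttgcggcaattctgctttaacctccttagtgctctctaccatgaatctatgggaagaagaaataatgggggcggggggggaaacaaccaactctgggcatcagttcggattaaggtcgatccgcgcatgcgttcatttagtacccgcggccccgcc
The consensus is its own reverse complement, so a match counts for both strands. It was searched in windows of 300 bases, from 250 before to 50 after each start, and 8 of the 10 genes had such a window. A half-site was present in windows of 5 of them, namely Cdkn1a, Ccng1, Bax, Mdm2 and Trp53, and in 8.36% of all 32851 windows. The Cdkn1a window shown had 2 half-sites separated by 12 bases, and the window of its other start (chr17:29093519-29093818) had 0. Where a gene had several windows, the one with the most half-sites is shown. Half-sites no more than 13 bases apart were found in 24 windows (0.0731%) in all. No exact half-site was found in these windows of Phlda3, Cdkn1b or Cdkn2a, which says nothing about sites elsewhere.

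Mutants were compared with controls to ask whether these genes depend on lamin B1. Of the 9 tested genes, 2 rose in mutant cells and 0 fell in a model with genotype and experimental group as replicate block (edgeR likelihood-ratio test, adjusted p under 0.05 over all tested genes). The genes that rose were Phlda3 and Cdkn1b. Across all tested genes 1.28% were higher and 4.30% were lower. At an unadjusted p under 0.05, 3 of the 9 were higher and 0 lower, beside 6.32% and 9.62% of all genes. The quasi-likelihood test and DESeq2 each called 1 higher, Phlda3, and 0 lower, where they called 0.758% and 1.14% of all genes higher and 3.20% and 3.45% lower. On unfiltered genes 1 of 10 was higher and 0 were lower, beside 0.856% and 2.31% of all genes. The median log2 fold change of the 9 genes was 0.11, with 5 positive and 4 negative values, beside -0.01 over all tested genes. Of the 9, 0 passed when the replicate block was left out and 0 had an unadjusted p under 0.05 (2.25% of all genes did), and 0.0389% of all genes were higher and 0.00% lower. A single set of counts was simulated with dispersions estimated from these samples. On that set every test with the block, DESeq2 and the quasi-likelihood test included, made more false calls than its threshold allows. In bulk samples, fewer cells of a type and less RNA per cell cannot be told apart.

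**Figure D1:**
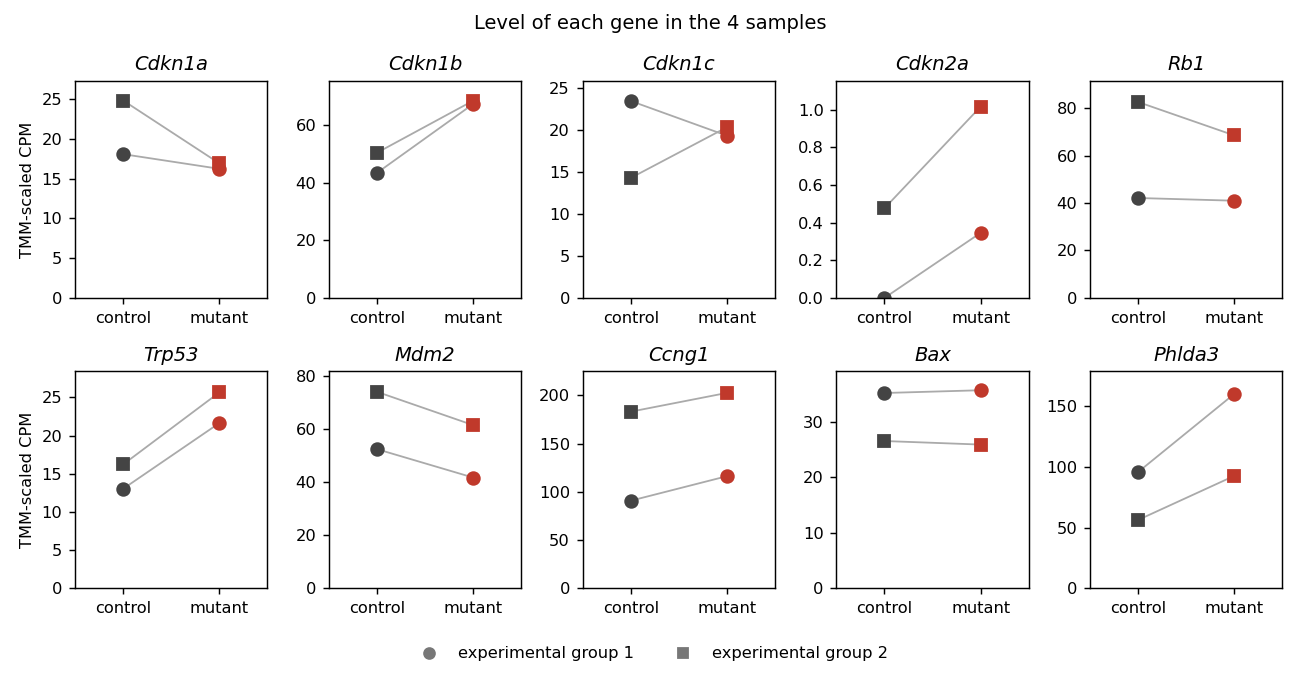
TMM-scaled CPM (y axis, from 0) of each of the 10 genes in the 2 control (grey) and 2 mutant (red) samples, with circles for experimental group 1, squares for experimental group 2 and lines joining the littermates. Cdkn1b and Trp53 were higher in both mutants than in both controls, as were 12.5% of all tested genes. The Phlda3 values of 92.6 in mutant 2 and 95.8 in control 1 overlapped across experimental groups.

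Phlda3 encodes a small pleckstrin homology domain protein that restrains Akt signalling. It lies on chromosome 1 at 135766119 to 135769136 on the plus strand. Its level was 95.8 and 56.3 CPM in controls 1 and 2, against 160 and 92.6 CPM in mutants 1 and 2. Each mutant was above its own littermate, but mutant 2 was slightly below control 1, so the genotypes overlapped. The log2 fold change was 0.73 (SE 0.18, edgeR adjusted p = 0.00191), with ratios of 0.74 and 0.72 in experimental groups 1 and 2. The call was also made by DESeq2 (adjusted p = 0.00145) and the quasi-likelihood test of edgeR (adjusted p = 0.0208), and was lost without the replicate block (edgeR adjusted p = 1.0).

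Horizontal basal cell markers, taken as a sum, moved with Phlda3. Their summed level was 2442 and 1832 CPM in controls 1 and 2, against 3419 and 2416 CPM in mutants 1 and 2. Samples with high and low sums were thus the same as for Phlda3. Single markers did not all have this order. From experimental group 1 to 2, the most abundant marker Krt5 was lower (log2 difference -0.76, SE 0.27). Trp63 was higher (log2 difference 0.55, SE 0.22). All 8 markers had a positive log2 fold change (median 0.43), and none had 0 counts in any sample. Of the 8, 2 passed as higher by the likelihood-ratio test and 7 by DESeq2, beside 1.28% and 1.14% of all tested genes. Phlda3 equalled 3.92% and 3.08% of this sum in the controls and 4.68% and 3.83% in the mutants. The part of these cells in the Phlda3 difference was not tested. By centred log2 CPM over the 4 samples, the 3 genes closest to Phlda3 among 12283 were Gnmt, Dact2 and Trim29, at Euclidean distances of 0.107, 0.112 and 0.122. Trim29 passed as higher (edgeR adjusted p = 0.04), and Gnmt and Dact2 did not (edgeR adjusted p = 0.351 and 0.415). With 4 values per gene so many genes cannot be separated finely, and no link to Phlda3 is drawn.

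Cdkn1b encodes p27, an inhibitor of cyclin E and cyclin A kinase complexes that holds cells in G1. It lies on chromosome 6 at 134920401 to 134925513 on the plus strand. Its level was 43.5 and 50.5 CPM in controls 1 and 2, against 67.4 and 68.6 CPM in mutants 1 and 2. Both mutants were above both controls, as was the case for 12.5% of all tested genes, and the mutants lay closer together than the controls. The log2 fold change was 0.54 (SE 0.17, edgeR adjusted p = 0.0324). Of the alternatives, the quasi-likelihood test (adjusted p = 0.0682), DESeq2 (adjusted p = 0.117) and edgeR on unfiltered genes (adjusted p = 0.0543) did not make the call. The call was also lost without the replicate block.

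Genes of dividing cells included some that rose in mutant cells. The summed level of 16 S phase and mitosis genes was 346 and 347 CPM in controls 1 and 2, against 589 and 610 CPM in mutants 1 and 2. None had 0 counts in any sample. Of the 16, 8 passed as higher and 0 as lower, DESeq2 called 6 higher and left 5 without an adjusted p, and all 16 had a positive log2 fold change (median 0.91). Those with the smallest p were Top2a, a DNA topoisomerase of dividing cells, Mcm5, a subunit of the replicative helicase, Ccna2, an S phase cyclin, and Cdc20, an activator of mitotic exit, with log2 fold changes of 0.98, 0.91, 1.33 and 1.30 (SE 0.16, 0.20, 0.29 and 0.29). Progenitor markers had a summed level of 267 and 244 CPM in the controls and 366 and 359 CPM in the mutants, with 0 markers at 0 counts. Cdkn1b equalled 12.6% and 14.5% of the summed proliferation genes in the controls and 11.4% and 11.2% in the mutants. The part of dividing cells in the Cdkn1b difference was not tested.

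**Figure D2:**
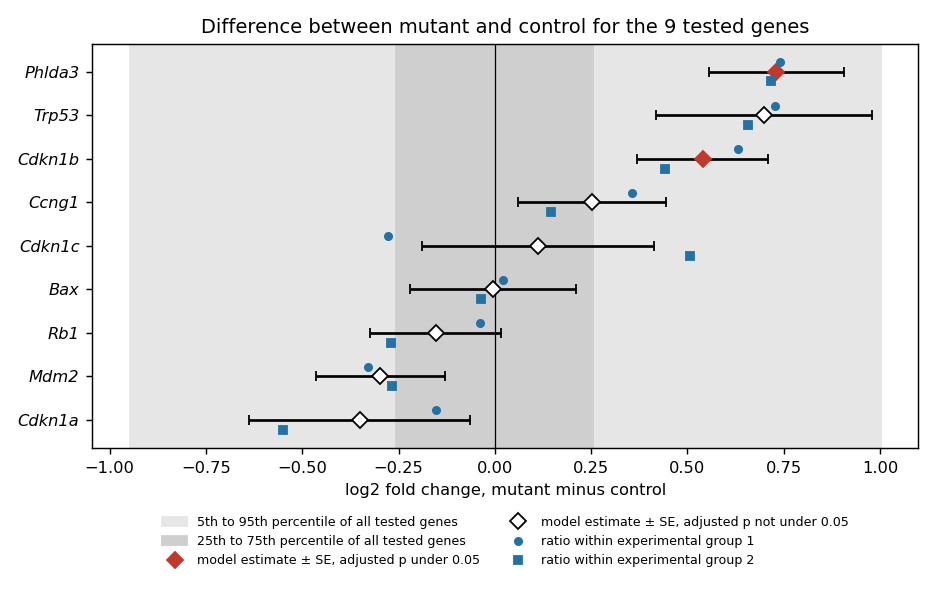
Log2 fold change (x axis, mutant minus control) of the 9 tested genes, with diamonds and bars for the model estimate and its SE, filled where the gene passed, and small symbols for the ratio within each experimental group. Phlda3 and Cdkn1b passed, Trp53 at 0.70 did not, and Cdkn1c had ratios of opposite sign (-0.28 and 0.51).

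Cdkn1a and Cdkn2a encode the inhibitors used most often as marks of senescence. Cdkn1a, on chromosome 17 at 29090976 to 29100727, measured 18.1 and 24.8 CPM in controls 1 and 2, against 16.2 and 16.9 CPM in mutants 1 and 2. Both mutants were below both controls, as was the case for 13.4% of all tested genes. The log2 fold change of -0.35 (SE 0.29) did not pass (edgeR adjusted p = 0.644), and its 95% interval was -0.91 to 0.21. Cdkn2a, on chromosome 4 at 89274471 to 89294653, yields p16 and p19Arf from overlapping transcripts that the count does not separate. It had 0 and 10 counts in controls 1 and 2, against 8 and 15 in mutants 1 and 2. The 0 in control 1 allows up to 0.127 CPM, which is 3 counts. The 8 counts of mutant 1 correspond to 6.83 per kb of exon, compared with a median of 1.80 per kb in that sample for 3416 genes without counts in the other 3. These levels were below the filter on low counts, and they were highest in mutant 2 at 1.02 CPM. When unfiltered genes were fitted, Cdkn2a did not pass (edgeR adjusted p = 0.558).

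Cdkn1c, an imprinted gene on chromosome 7 at 143458339 to 143461050, encodes p57. Its level was 23.4 and 14.3 CPM in controls 1 and 2, against 19.3 and 20.3 CPM in mutants 1 and 2. Mutants lay between the controls, and the log2 fold change of 0.11 (SE 0.30) did not pass (edgeR adjusted p = 0.939). An antisense gene shares 30.7% of its exon bases, and strand was not stated for the counting, so the reads of both cannot be told apart. Rb1, on chromosome 14 at 73183673 to 73325822, measured 42.1 and 82.6 CPM in controls 1 and 2, against 41.0 and 68.5 CPM in mutants 1 and 2. Samples of experimental group 2 were higher than those of experimental group 1 regardless of genotype. The Rb1 log2 fold change was -0.15 (SE 0.17, edgeR adjusted p = 0.768). Rcbtb2 and Lpar6, on the opposite strand, share 8.11% and 6.78% of Rb1 exon bases.

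Trp53, on chromosome 11 at 69580359 to 69591873, measured 13.04 and 16.2 CPM in controls 1 and 2, against 21.6 and 25.7 CPM in mutants 1 and 2. Both mutants were above both controls, as was the case for 12.5% of all tested genes, with ratios of 0.73 and 0.66 in experimental groups 1 and 2. The log2 fold change of 0.70 (SE 0.28) was close in size to that of Phlda3, but it had fewer counts (302 to 501) and did not pass (unadjusted p = 0.0132, edgeR adjusted p = 0.145). It equalled 3.77% and 4.67% of the summed proliferation genes in the controls and 3.67% and 4.21% in the mutants. Mdm2, on chromosome 10 at 117688875 to 117710758, measured 52.5 and 74.2 CPM in controls 1 and 2, against 41.8 and 61.6 CPM in mutants 1 and 2. Each mutant was below its littermate, and the log2 fold change of -0.30 (SE 0.17) did not pass (edgeR adjusted p = 0.397).

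Ccng1, which encodes cyclin G1, a regulator of the p53 and MDM2 pair, lies on chromosome 11 at 40748552 to 40755311. It measured 90.8 and 183 CPM in controls 1 and 2, against 116 and 202 CPM in mutants 1 and 2. Each mutant was above its littermate by less than the distance between experimental groups, and the log2 fold change was 0.25 (SE 0.19, edgeR adjusted p = 0.603). Bax, a pore-forming protein of apoptosis, lies on chromosome 7 at 45461697 to 45466898. It measured 35.1 and 26.5 CPM in controls 1 and 2, against 35.6 and 25.9 CPM in mutants 1 and 2. Littermates were nearly equal, with a log2 fold change of -0.005 (SE 0.21) for Bax (edgeR adjusted p = 0.998) and a 95% interval of -0.43 to 0.42.

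Experimental group separated several of the genes more than genotype did. This is not particular to them. Of all tested genes 31.6% passed for experimental group, whereas 4.30% were lower and 1.28% higher for genotype. In the same model 3 of the 9 genes were higher and 1 was lower in experimental group 2 than in experimental group 1, so that 4 of 9 passed in either direction, beside 31.6% of all tested genes. Ccng1, Rb1 and Mdm2 were higher, by 0.90 (SE 0.19), 0.85 (SE 0.17) and 0.53 (SE 0.17) on the log2 scale. Phlda3 was lower, with a log2 difference of -0.78 (SE 0.18), and edgeR adjusted p was 3.55e-05, 9.58e-06, 0.00814 and 0.000111 for Ccng1, Rb1, Mdm2 and Phlda3. Under DESeq2 Mdm2 did not pass (adjusted p = 0.0674). The summed level of sustentacular (supporting) cell markers was ordered over the samples as Ccng1 was. It was 8288 and 18178 CPM in controls 1 and 2, against 10566 and 22539 CPM in mutants 1 and 2. None of the 8 was at 0 counts. Cbr2, the most abundant of them, was ordered otherwise, at 3470 and 4282 CPM in the controls and 4824 and 6183 CPM in the mutants. Rb1 and Mdm2 were highest in control 2. The part of supporting cells in the Ccng1, Rb1 and Mdm2 differences was not tested. Parents, age, sex and treatment differed between the experimental groups, although methimazole dose and recovery time did not. The study's methods state shared sample preparation and sequencing only within an experimental group. Non-unique alignments numbered 67710764 and 62182762 in control 1 and mutant 1, against 10308536 and 6757456 in control 2 and mutant 2. These differences between the experimental groups cannot be told apart.

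**Figure D3:**
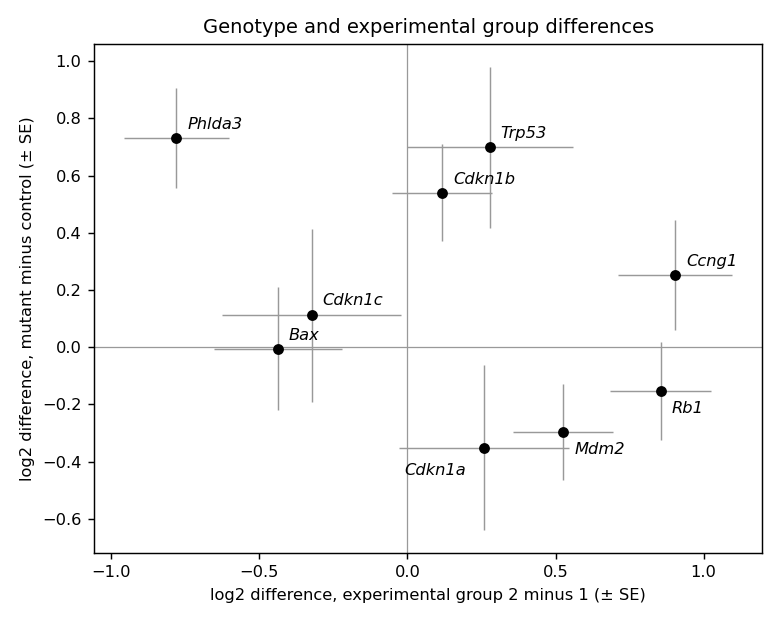
Log2 difference between genotypes (y axis, mutant minus control) against that between experimental groups (x axis, 2 minus 1) for the 9 tested genes, each with its SE from the same model. Phlda3 lies at 0.73 and -0.78, whereas Ccng1 and Rb1 lie beyond 0.8 on the x axis and within 0.3 of 0 on the y axis.

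Levels of the 10 genes relative to each other were compared as CPM per kb of merged exon. Phlda3, with 36.1 to 103 CPM per kb, and Ccng1, with 25.8 to 57.7, were the most abundant. Phlda3 was above Ccng1 in 3 of 4 samples, all but control 2, so these 2 did not differ beyond their spread. Bax followed with 16.4 to 22.6 CPM per kb, below Ccng1 and above Cdkn1b in all 4 samples with merged exon lengths. Cdkn1b, Mdm2, Rb1 and Cdkn1c lay between 6.81 and 15.1 CPM per kb and their ranges overlapped. Cdkn1a, with 4.57 to 6.99, and Trp53, with 3.22 to 6.34, also overlapped, with Cdkn1a below Trp53 in both mutants and above it in both controls with these lengths. Cdkn2a, at no more than 0.866 CPM per kb, was the lowest in all 4 samples. The longest transcript in place of merged exons raised Cdkn1a, Mdm2 and Bax, to means of 9.15, 18.3 and 28.0 CPM per kb from 5.35, 11.3 and 19.5. On that scale Cdkn1a was above Trp53 in all 4 samples, with 7.81 against 6.61 in mutant 1 and 8.14 against 7.83 in mutant 2, and Bax was above Ccng1 in control 1, with 31.9 against 25.8.

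Other p53 targets were examined to see whether Phlda3 was accompanied by the wider pathway. Of 26 tested targets, 0 passed in either direction by the likelihood-ratio test and 1, Ephx1, passed by DESeq2 (named after its values were seen; 9 were left without an adjusted p), while 4 had an unadjusted p under 0.05. Of all tested genes 15.9% had such a p, so 4 of 26 was near the background, and the counts of this kind for the other lists are to be read beside the same share. The median log2 fold change was 0.12, with 15 positive and 11 negative values. The smallest p were those of Gadd45a, a stress sensor, and Eda2r, a death receptor of the TNF family. Gadd45a was at 15.8 and 15.5 CPM in the controls and 24.97 and 27.8 in the mutants (log2 fold change 0.75, SE 0.27, edgeR adjusted p = 0.0798). Eda2r was at 0.173 and 2.47 CPM in the controls and 2.68 and 5.48 CPM in the mutants (log2 fold change 2.35, SE 0.84, edgeR adjusted p = 0.121). Neither gene passed. Both had higher levels in both mutants than in both controls, as did 6 of the 26 targets, beside 12.5% of all tested genes. In 2 of the 26 both mutants were below both controls, beside 13.4%. Eda2r had 4 counts in control 1, and its ratios in experimental groups 1 and 2 were 3.36 and 1.12.

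Of 12 genes that act on p53 or belong to its family, 0 passed by the likelihood-ratio test, 1 passed by DESeq2 and 1 had an unadjusted p under 0.05. Trp63, a p53 family member required by horizontal basal cells, was at 167 and 260 CPM in the controls and 255 and 352 CPM in the mutants (log2 fold change 0.53, SE 0.22, edgeR adjusted p = 0.170). It passed under DESeq2 (adjusted p = 0.00560), and it is also one of the 8 basal cell markers above. Mdm4, a relative of Mdm2, had a log2 fold change of 0.21 and SE of 0.22 (edgeR adjusted p = 0.756).

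Among cell cycle partners of the inhibitors, 8 of 12 pocket proteins and E2F factors and 7 of 8 G1 cyclins and CDKs had positive fold changes. So did 3 of 4 other CDK inhibitors, beside 48.9% of all tested genes. Ratios had opposite signs in the experimental groups for 5, 1 and 1 of them, beside 37.3% of all tested genes. Among 12 pocket proteins and E2F factors, 1 rose and 0 fell, beside 1.28% and 4.30% of all tested genes. Rbl1, which encodes the Rb1 relative p107, was at 9.37 and 18.7 CPM in the controls and 20.6 and 29.2 CPM in the mutants (log2 fold change 0.89, SE 0.29, edgeR adjusted p = 0.0424). It did not pass by the quasi-likelihood test (adjusted p = 0.0792) or DESeq2 (adjusted p = 0.103). Among 8 G1 cyclins and CDKs, 0 passed by the likelihood-ratio test, 1 by DESeq2, and 3 had an unadjusted p under 0.05. Ccnd1 and Ccnd2, cyclins of G1 progression, had log2 fold changes of 0.52 (SE 0.20) and 0.45 (SE 0.18), with edgeR adjusted p of 0.114 and 0.155, and Ccnd1 passed under DESeq2 (adjusted p = 0.0276). None of 4 other CDK inhibitors passed, by the likelihood-ratio test or by DESeq2, which left 3 of them without an adjusted p, and 0 had an unadjusted p under 0.05. Cdkn2c and Cdkn2d, of the same INK4 family as p16, had log2 fold changes of 0.53 (SE 0.33) and -0.43 (SE 0.31), with edgeR adjusted p of 0.465 and 0.571.

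Partners of Bax included genes that fell. Of 19 BCL2 family and caspase genes, 3 fell and 0 rose, beside 4.30% lower and 1.28% higher over all tested genes. Bok, a relative of Bax, fell from 82.5 to 48.2 CPM in experimental group 1 and from 35.9 to 17.5 CPM in experimental group 2 (log2 fold change -0.89, SE 0.18, edgeR adjusted p = 0.000124). Hrk, a pro-apoptotic gene of neurons, fell from 52.7 to 34.3 CPM and from 54.05 to 29.0 CPM (log2 fold change -0.75, SE 0.19, edgeR adjusted p = 0.00277). Bcl2l2, which protects cells from apoptosis, fell from 162 to 100.2 CPM and from 119 to 81.1 CPM (log2 fold change -0.62, SE 0.18, edgeR adjusted p = 0.0122). All 3 also passed by the quasi-likelihood test and DESeq2, and 0 passed without the replicate block. Pro- and anti-apoptotic genes were thus both among them. Mature neuron markers fell in the same comparison, with 12 of 12 lower (median log2 fold change -1.35), of which DESeq2 called 7. Omp was not among those 7 (DESeq2 adjusted p = 0.0674) and did not pass on unfiltered genes (edgeR adjusted p = 0.609). Of 6 tested ciliated cell markers 3 fell, as did 1 of 6 ensheathing glia markers, Fabp7. The summed level of the neuron markers was 20028 and 8758 CPM in controls 1 and 2, against 10750 and 2586 CPM in mutants 1 and 2, with none at 0 counts, and their part in these 3 decreases was not tested.

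**Figure D4:**
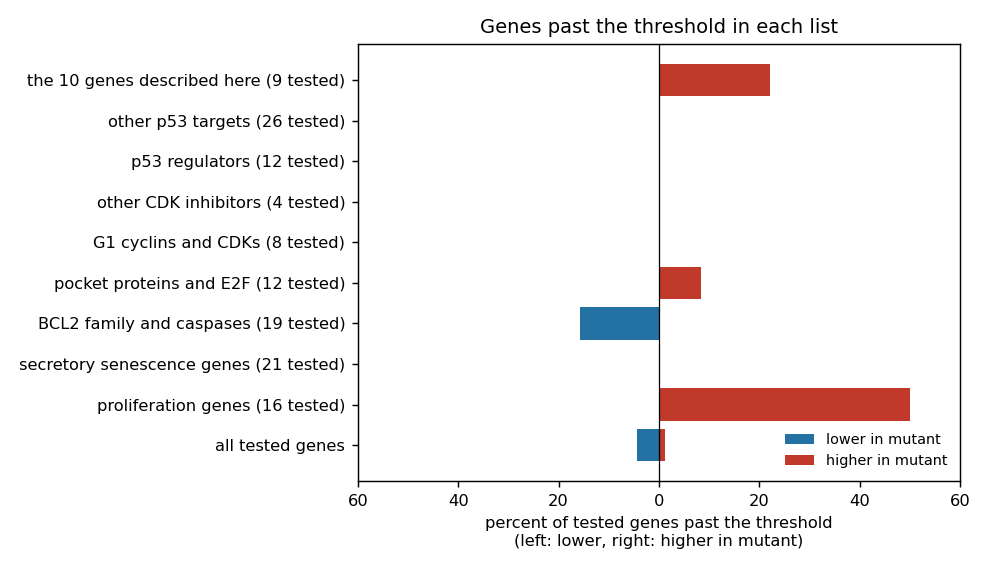
Percent of tested genes past the threshold in each list (x axis, lower to the left in blue, higher to the right in red), with the number tested beside each name and all tested genes at the bottom (4.30% lower and 1.28% higher). Lists without a gene past the threshold have no bar, and the proliferation genes have 8 of 16 higher.

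Secreted factors and other genes used as marks of senescent cells were examined last. Of 25 such genes, 21 were tested and 0 passed in either direction by the likelihood-ratio test or DESeq2, which left 14 without an adjusted p, while 2 had an unadjusted p under 0.05. The median log2 fold change was 0.00. Cxcl2, a chemokine, was at 5.31 and 3.81 CPM in the controls and 0.777 and 1.96 CPM in the mutants (log2 fold change -1.84, SE 0.75, edgeR adjusted p = 0.179). Areg, an EGF receptor ligand, measured 1.42 and 11.9 CPM in controls 1 and 2, against 1.12 and 1.083 CPM in mutants 1 and 2. Control 2 alone stood high, with ratios of -0.32 and -3.34 in experimental groups 1 and 2. Areg had a log2 fold change of -1.90 and SE of 0.75 (edgeR adjusted p = 0.211), and it passed without control 1 (edgeR adjusted p = 0.0107). Several of these genes are also made by leukocytes, which the sort for Tomato in the keratin 5 lineage should remove. Their markers had a summed level of 760 and 809 CPM in controls 1 and 2, against 376 and 855 CPM in mutants 1 and 2, with 0 to 3 of 16 at 0 counts. Leukocyte markers had 0 of 14 tested genes past the threshold by the likelihood-ratio test or DESeq2 (9 without an adjusted p) and 0 with an unadjusted p under 0.05, and their part in the secreted factors was not tested.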

How the data were processed

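RNA-seq counts of 4 samples were analysed. Per the labels and the study's methods, the authors depleted ribosomal RNA, treated RNA with DNase, removed reads matching ribosomal RNA with Bowtie2 2.0.6, filtered by quality, aligned to mm10 with TopHat2 2.0.7 and counted with HTSeq in intersection-nonempty mode. The files as deposited hold unnormalized counts of reads for each gene symbol. Strand setting and annotation were not given in the sources used here. Each file ends in 5 tally lines, which entered neither totals nor tests. Reads outside genes made up 22.1% to 39.4% of uniquely aligned reads.

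Genes above 1 CPM in at least 2 samples were fitted in edgeR 4.0.16 (R 4.3.3) with TMM factors, tagwise dispersions and a model of genotype and experimental group. The likelihood-ratio test was adjusted by the Benjamini-Hochberg method over all tested genes. Test, cut-offs and model were those of the study's methods. Totals here left out the tally lines, and the numbers of genes tested and called differ from those the study reports. SE and 95% intervals are of the Wald type. Ratios within an experimental group rest on 1 mutant and 1 control, use log2 CPM (prior count 2), and carry no test. The pairing comes from the labels and littermates. Within an experimental group, deviations from the genotype mean had r = 0.522 across 15438 genes, which are not independent replicates. With 2 samples per genotype an exact permutation test cannot go below p = 0.333, so the p-values given here rest on the model. Each sample is 1 mouse.

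Coordinates and exon lengths are from GENCODE M21 (GRCm38, the assembly of mm10). Alternatives were the quasi-likelihood test, DESeq2 1.42.0 (an adjusted p it leaves out was kept as missing), no replicate block, RLE factors, other filters, thinning to 14833396 counts, leaving out each sample and, chosen after seeing the data, a background subtracted from mutant 1. The scripts were tested on simulated data.

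The 10 genes and all lists were chosen with earlier results of these data known. Named genes are the 10, Lmnb1, up to 4 genes of each list past the threshold in each direction by p (or 2 with the smallest p where none passed) and the most abundant marker of a cell type. Gene totals of 14833396 to 23704638 put 3 counts at 0.127 to 0.202 CPM. Floors cover counting error only.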

Additional observations from a re-analysis of the deposited data

Results flagged for a closer look

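Some genes had ratios of opposite sign in the 2 experimental groups. Each group holds 1 mutant and 1 control, so these differences were not tested. Cdkn1c had log2 ratios of mutant to control of -0.28 and 0.51 in experimental groups 1 and 2. Bax, where littermates were nearly equal, had 0.02 and -0.04. Median log2 ratios of lists also differed in sign, with -0.06 and 0.53 for other CDK inhibitors, -0.08 and 0.16 for other p53 targets, -0.04 and 0.10 for BCL2 family and caspase genes, -0.20 and 0.09 for secreted senescence genes and -1.73 and 1.13 for immune cell markers. Ratios of opposite sign were found in 2 of the 9 tested genes described here, beside 37.3% of all tested genes.

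Reads outside annotated genes, which no comparison uses, were 39.41% of the unique alignments of mutant 1 and 23.76% and 24.88% of those of the controls.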

How the results depend on the processing

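The fit without the replicate block kept the direction of Phlda3 and Cdkn1b (0.73 and 0.54 on the log2 scale, with an edgeR adjusted p of 1.0 for both) but called neither, with 0 of the 9 tested genes, 0 related genes lower and 0 higher past the threshold. The dispersion common to all genes was 0.062 with the block and 0.181 without it, and the SE of Phlda3 was 0.18 and 0.49. The cause of the lost calls was not tested. Cdkn1b also did not pass by the quasi-likelihood test (0.54), under DESeq2 (0.55) or without a filter on low counts (0.57), which left 1 of the genes, Phlda3, past the threshold in each. Its adjusted p ranged from 0.0265 to 1.0 over 8 alternatives, and that of Phlda3 from 0.000253 to 1.0. Bax, close to 0 in all fits with the block, changed sign under DESeq2 (0.005), RLE factors (0.006), no filter (0.021), thinning (0.011) and background subtraction (0.014).

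Leaving out 1 sample required a model without the block, in which the lone sample is assumed to vary like the other genotype, and the remaining samples are then unbalanced between experimental groups. Phlda3 ranged from 0.28 without mutant 1 to 1.18 without control 1, and Cdkn1b from 0.44 to 0.69, with 0 of the 9 tested genes past the threshold in every case. Related genes past the threshold numbered 0 to 1 lower and 0 higher. Ranges spanned 0 for Cdkn1c (-0.20 to 0.48), Mdm2 (-0.56 to 0.02), Ccng1 (-0.20 to 0.85), Bax (-0.26 to 0.25) and Rb1 (-0.59 to 0.42), and Trp53 stayed positive (0.55 to 0.90). The 0 calls for members lower held in all fits. Cdkn2a, below the filter on low counts, had a wide error where it was fitted (SE 2.03 on the log2 scale, unfiltered genes).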
